A study of Oryza sativa with 24 samples.

Results

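OsTIR1 (Os05g0150500, named TIR1 in the deposited table) and OsAFB2 (Os04g0395600) are F-box auxin receptor genes of rice, chosen by gene identifier because their transcripts are targets of the microRNA miR393. They are 2 of the 38866 genes in the table, and both passed the filter on low counts that left 29710 genes for testing. On the IRGSP-1.0 genome, OsTIR1 lies on the minus strand of chromosome 5 from 2892746 to 2898971 and has 1 annotated transcript. OsAFB2 lies on the minus strand of chromosome 4 from 19453774 to 19458208 and has 3 annotated transcripts. Reads were summed over each whole gene, so exons and transcripts were not told apart.

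TIR1/AFB proteins are the substrate-binding subunits of SCF ubiquitin ligases. Auxin holds the receptor and an Aux/IAA repressor together, the repressor is ubiquitinated and degraded, and the auxin response factors (ARFs) it held are released to act on transcription. miR393, loaded in an ARGONAUTE1 protein, guides cleavage of receptor transcripts and so sets how sensitive a tissue is to auxin.

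Seeds of wild-type rice (Nipponbare, NIP in the labels) and of 35Spro:OsMIR393b (OEMIR393b in the labels), a line in the same background that carries the miR393 precursor gene OsMIR393b behind the cauliflower mosaic virus 35S promoter, were cultured on hormone-free N6 medium for 2 d or on callus-inducing medium (CIM), which contains the synthetic auxin 2,4-D, for 2, 5 or 7 d. Each of these 8 groups had 3 libraries, 24 in all, of polyadenylated RNA from scutella pooled over several seeds. Callus arises from the scutellum, the single seed leaf of a grass embryo. The labels call the tissue mature embryo, the methods scutella. The labels give 1 overexpression genotype, and the 35S promoter is active in most cells, so the line does not single out a cell type. Hormone-free controls exist for 2 d alone, so medium and time cannot be told apart at 5 and 7 d. No gene in the table carries MIR393 in its name or description, and the level of the microRNA itself was not analysed here.

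Library totals ran from 50341636 to 70796624 estimated counts, and Spearman correlations between libraries of a group from 0.951 to 0.987. The lowest was in the line at 5 d, where replicate 1 stood apart with correlations of 0.967 and 0.951 to the others and a TMM scaling factor of 1.02 against 0.856 and 0.843. Tissue markers differed between the genotypes. The summed level of 4 scutellum genes, among them the alpha-amylase gene AMY1A, on N6 was 6040 to 7935 CPM (TMM-scaled read counts relative to library size) for wild-type against 14570 to 16220 CPM for the line, and at 7 d 477 to 1075 against 20180 to 27650 CPM. AMY1A made up most of these sums, and the amylase gene Amy3D/E went the other way at 7 d, with 172 to 467 CPM in wild-type libraries against at most 1.23 CPM. For 3 leaf genes the sums were 210.1 to 247 against 351 to 452 CPM on N6, and 4.87 to 12.1 against 40.8 to 74.1 CPM at 7 d. For 3 embryo genes they were 35.1 to 107 against 163 to 468 CPM on N6, and 865 to 1327 against 143 to 285 CPM at 7 d. Root markers (2 genes) summed to 95.8 to 206 against 44.2 to 90.8 CPM on N6, and to 16.2 to 32.3 against 41.8 to 45.3 CPM at 7 d. The order of the sums turned, but neither gene alone separated the genotypes at both. On N6 RCc2 did (80.8 to 152 against 34.4 to 59.7 CPM) and RCc3 overlapped. At 7 d RCc3 did (6.88 to 17.0 against 24.75 to 38.6 CPM) and RCc2 overlapped. The 5 endosperm markers summed to 8.72 to 21.6 against 32.1 to 50.7 CPM on N6. At 7 d they summed to 1.32 to 3.64 against 8.75 to 31.55 CPM, where WX1 had 2.16 to 17.6 CPM in the line. The sum was at most 50.7 CPM in any library, with 1 of 2 GluB1 glutelin genes at 0 in 23 of the 24 libraries. These values move with genotype and culture beside every result below, and their part in the results was not tested. In such bulk RNA, fewer cells that express a gene and less RNA per cell cannot be told apart.

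OsTIR1 was lower in every library of the line than in any wild-type library. On N6 the wild-type libraries had 104, 110.2 and 117 CPM and those of the line 27.5, 24.3 and 26.3 CPM. After 2 d on CIM wild-type had 80.1, 69.4 and 70.5 CPM against 20.4, 21.4 and 21.1 CPM for the line. The gap between the genotypes was thus several times the spread of either. Day 5 gave 85.3, 82.3 and 82.0 CPM for wild-type against 19.1, 22.4 and 25.4 CPM. Day 7 gave 105, 96.3 and 89.6 CPM against 22.7, 29.5 and 28.4 CPM. The lowest wild-type library (69.4 CPM, at 2 d on CIM) was still above the highest library of the line (29.5 CPM, at 7 d).

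OsAFB2 was also lower in every library of the line, with a much narrower gap. On N6 the wild-type libraries had 129.8, 149 and 146 CPM and those of the line 90.5, 79.1 and 77.1 CPM. After 2 d on CIM wild-type had 103, 96.2 and 111 CPM against 60.2, 59.8 and 63.3 CPM for the line. The genotypes did not overlap in either culture. Day 5 gave 130.3, 116 and 118 CPM for wild-type against 54.9, 61.7 and 71.5 CPM. Day 7 gave 145, 156 and 143 CPM against 69.1, 75.4 and 77.9 CPM. Across all 24 libraries the lowest wild-type value (96.2 CPM, on CIM at 2 d) was just above the highest value of the line (90.5 CPM, on N6). Such a complete separation of the 12 libraries of the line below the 12 of wild-type was found for 104 of the 29710 genes tested, or 0.35%.

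**Figure D1:**
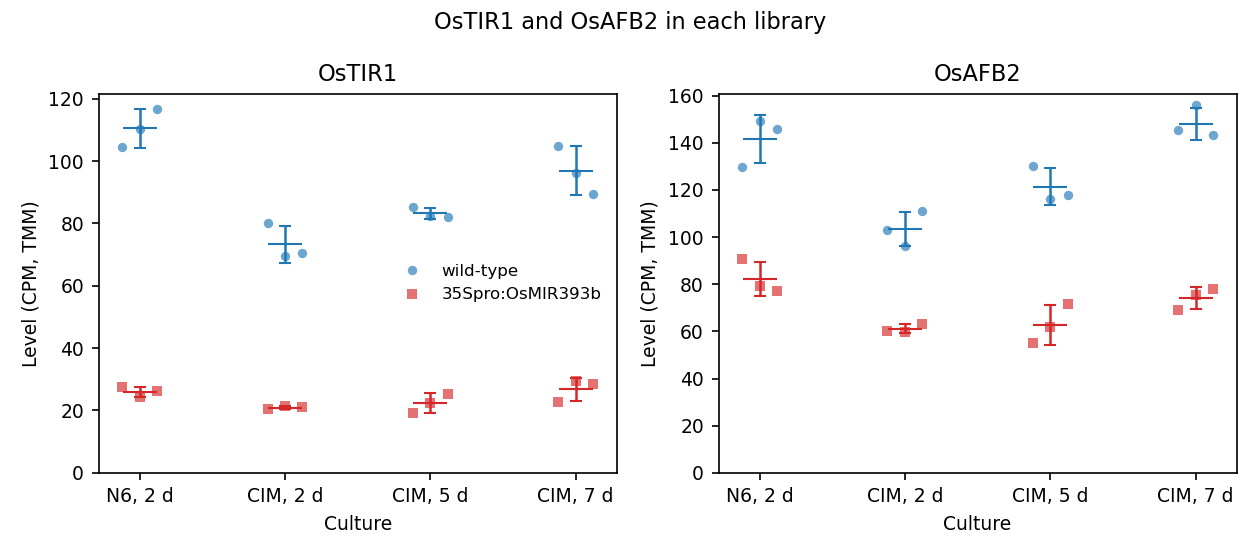
Level (CPM, TMM-scaled, vertical axis from 0) of OsTIR1 and OsAFB2 in each library by culture. Points are libraries, wide ticks group means and error bars 1 SD (n = 3). The line lies below wild-type at every culture, at 19.1 to 29.5 against 69.4 to 117 CPM for OsTIR1 and at 54.9 to 90.5 against 96.2 to 156 CPM for OsAFB2.

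The first comparison asked how far each receptor transcript was reduced in 35Spro:OsMIR393b at each culture. All 24 libraries entered 1 model, tested gene by gene with the quasi-likelihood F-test of edgeR and with Benjamini-Hochberg adjustment over all 29710 genes. A gene passed at an adjusted p under 0.05 and was called when its absolute log2 fold change was also above 1. As the mean over the 4 cultures, OsTIR1 fell to 26.6% of wild-type (95% limits 24.6 to 28.8%, log2 fold change −1.91 ± 0.0544 SE, adjusted p = 6.94e-15) and was called. OsAFB2 fell to 54.6% (50.9 to 58.5%, log2 −0.87 ± 0.0479 SE, adjusted p = 3.37e-11), which passed but did not reach the minimum fold. In this comparison 30.6% of all genes passed as lower and 10.4% were called lower. Among them OsTIR1 ranked 4 of 29710 by p but only 1121 of the 9096 lower genes by size of fall, and OsAFB2 150 and 3580. The genes next to OsTIR1 in size of fall were Os12g0605500, OsCCR10, Os10g0563500, OsFbox269, Os12g0517800 and Os02g0588250, at −1.91 each, and those next to OsAFB2 were RPS10a, OsFKBP53, Os11g0236932, OsFbox559, Os05g0521700 and Os01g0152300, at −0.87 each.

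Within the cultures the falls were of similar size. OsTIR1 fell to 23.5% of wild-type on N6 (20.1 to 27.6%, edgeR adjusted p = 7.27e-10), 28.6% on CIM at 2 d (24.4 to 33.4%, adjusted p = 5.09e-09), 26.8% at 5 d (22.9 to 31.4%, adjusted p = 6.85e-10) and 27.7% at 7 d (23.7 to 32.4%, adjusted p = 3.18e-10), and was called at each. OsAFB2 fell to 58.1% on N6 (50.6 to 66.7%, adjusted p = 9.96e-05), 59.1% at 2 d (51.4 to 67.9%, adjusted p = 6.07e-05), 51.7% at 5 d (44.9 to 59.4%, adjusted p = 2.14e-07) and 50.1% at 7 d (43.6 to 57.6%, adjusted p = 4.75e-08), and was called at none, the nearest being −0.998 on the log2 scale at 7 d. Of all genes, 2.8% passed as lower on N6, then 8.66, 23.5 and 31.2% at 2, 5 and 7 d, and 1.18% were called lower on N6, then 2.73, 10.9 and 20.3%. The receptor transcripts were therefore among few lower genes on N6 and among many at 7 d. When replicate 1 of the line at 5 d was left out, the log2 fold change at that day was −1.80 for OsTIR1 and −0.87 for OsAFB2, against −1.90 and −0.95 with it. Without replicate 3 of the line at that day OsAFB2 was at −1.06 and would have been called. At 7 d the OsAFB2 value ran from −0.95 to −1.04 as single libraries were left out, and passed the minimum fold without replicate 3 of wild-type on N6, any wild-type replicate at 5 d, replicates 1 or 3 of wild-type at 7 d, or replicates 2 or 3 of the line at 7 d.

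Scaling changed the sizes but not the direction. When libraries were scaled by their totals alone, the median of all genes moved by −0.264 in the mean over cultures and by −0.62 at 7 d. The mean fall was then −2.19 for OsTIR1 and −1.15 for OsAFB2, which took OsAFB2 past the minimum fold. At 7 d the values were −2.44 and −1.59. Over all genes, the mean over cultures gave 3535 called higher and 3075 called lower with TMM, and 2552 and 4513 with totals.

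**Figure D2:**
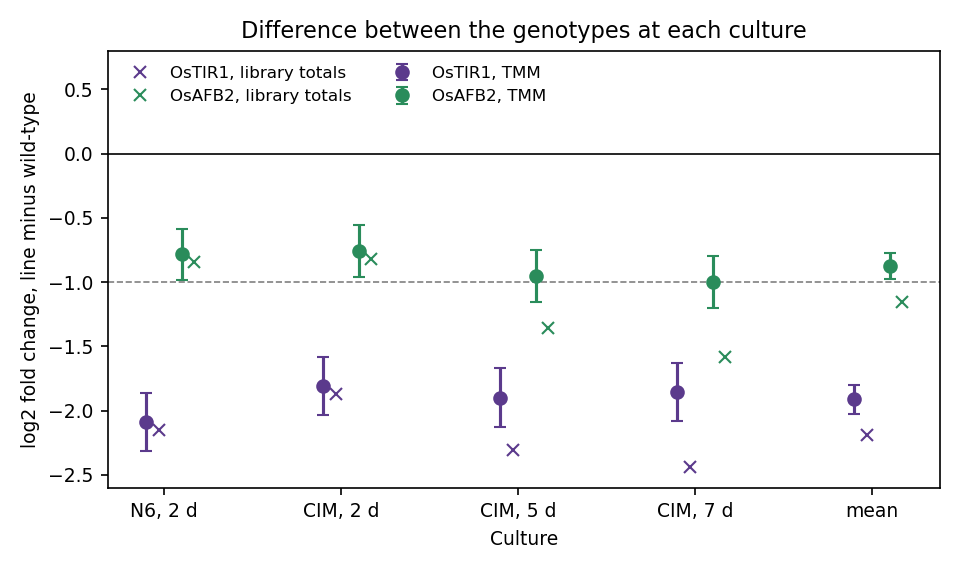
Log2 fold change, line minus wild-type, of OsTIR1 and OsAFB2 at each culture and as the mean over cultures. Filled points with 95% limits use TMM factors, crosses library totals, and the dashed line marks a log2 fold change of −1. OsTIR1 lies between −1.81 and −2.09 with TMM and OsAFB2 between −0.76 and −0.998, with lower values by totals at 5 and 7 d.

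The ratio of the receptors within a library does not depend on how libraries are scaled, and it tested whether the fall was of unequal size. On FPKM (fragments scaled by transcript length and library size, a unit that allows levels of different genes to be compared), OsTIR1 and OsAFB2 were about level in wild-type. On N6, for example, OsTIR1 had 49.5 ± 2.66 FPKM and OsAFB2 45.5 ± 2.89 FPKM (SD, n = 3). In the line on N6 they had 11.2 ± 0.893 and 25.4 ± 2.37 FPKM (SD, n = 3). Over the 12 wild-type libraries the ratio of OsTIR1 to OsAFB2 ran from 0.861 to 1.12 (median 0.996), and over the 12 libraries of the line from 0.422 to 0.544 (median 0.479), with no overlap. The log2 ratio was lower by 1.04 units in the line (difference −1.04, exact permutation test within cultures, two-sided, p = 1.25e-05, the smallest that its 160000 relabellings can give). OsTIR1 thus went from level with OsAFB2 to the lesser of the pair.

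**Figure D3:**
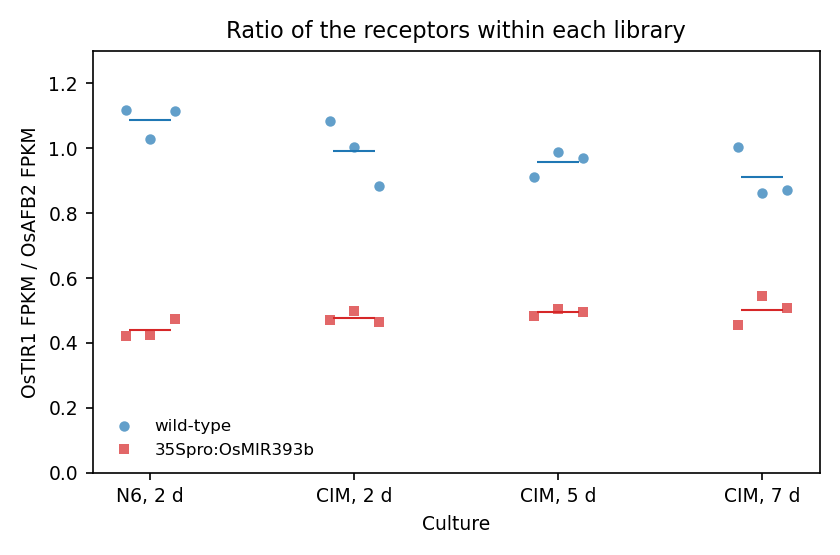
Ratio of OsTIR1 to OsAFB2 FPKM within each library (vertical axis from 0) by culture. Points are libraries and wide ticks group means of 3. Wild-type libraries lie between 0.861 and 1.12 and those of the line between 0.422 and 0.544.

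The second comparison asked whether the receptor transcripts changed in culture on CIM, each day against N6 within a genotype. At 2 d, where the time was the same and the medium differed, OsTIR1 in wild-type fell to 66.4% of its N6 level (57.0 to 77.3%, log2 −0.59 ± 0.105 SE, edgeR adjusted p = 0.000705) and OsAFB2 to 73.0% (63.6 to 83.8%, log2 −0.45 ± 0.0952 SE, adjusted p = 0.00278), where 8.74% of all genes passed as lower. In the line at 2 d OsAFB2 fell to 74.3% (64.7 to 85.3%, log2 −0.43 ± 0.0953 SE, adjusted p = 0.0198), where 0.794% of genes passed as lower, while OsTIR1 stood at 80.6% (69.2 to 94.0%, log2 −0.31 ± 0.106 SE, adjusted p = 0.142). The OsAFB2 result in the line did not hold without replicate 1 on N6 (log2 −0.35, edgeR adjusted p = 0.112), or without replicate 1 (−0.42, adjusted p = 0.0899) or replicate 2 at 2 d (−0.41, adjusted p = 0.0715).

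With TMM factors the levels at 5 and 7 d lay closer to those on N6 than at 2 d, a difference between days that was not tested. With library totals this did not hold in the line at 5 d. OsTIR1 was there at log2 −0.332 against −0.325 at 2 d, and OsAFB2 at −0.501 against −0.442. In wild-type at 5 d OsTIR1 was at 75.3% (64.7 to 87.7%, edgeR adjusted p = 0.00319, with 25.2% of genes passing as lower) and OsAFB2 at 85.7% (74.7 to 98.4%, adjusted p = 0.0593). At 7 d, where 26.2% of genes passed as lower, neither did in wild-type, with OsTIR1 at 87.8% (75.4 to 102%, adjusted p = 0.142) and OsAFB2 at 105% (91.1 to 120%, adjusted p = 0.596). In the line at 5 d OsAFB2 was at 76.2% (66.4 to 87.5%, adjusted p = 0.00572, with 11.1% of genes passing as lower) and OsTIR1 at 85.9% (73.7 to 100.1%, adjusted p = 0.141), and at 7 d, with 23.3% of genes passing as lower, they were at 90.2% (78.5 to 103.5%, adjusted p = 0.213) and 103% (88.6 to 120.4%, adjusted p = 0.759). None of these changes reached the minimum fold. OsAFB2 at 5 d in wild-type passed when replicate 1 on N6 (log2 −0.28), replicate 1 at 5 d (−0.30) or replicate 1 or 3 of the line at 5 d (−0.22 each, through the shared fit) was left out. In the line, OsAFB2 at 5 d did not pass in a fit of only the groups compared (−0.38).

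Scaling by library totals did not change which results passed at 2 d, but did so for 4 of the 8 results at 5 and 7 d. With library totals, the median of all genes moved by 0.252 and 0.293 at 5 and 7 d in wild-type and by −0.0758 and −0.273 in the line. OsTIR1 in wild-type at 5 d was then at log2 −0.17 (edgeR adjusted p = 0.194) and no longer passed. OsAFB2 at 7 d passed as higher in wild-type (0.34, adjusted p = 0.00754) and as lower in the line (−0.40, adjusted p = 0.0031), and OsTIR1 in the line at 5 d passed as lower (−0.33, adjusted p = 0.0347). OsAFB2 in the line at 5 d passed with either scaling (−0.50, adjusted p = 0.00138 with totals), and OsTIR1 at 7 d with neither in either genotype.

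**Figure D4:**
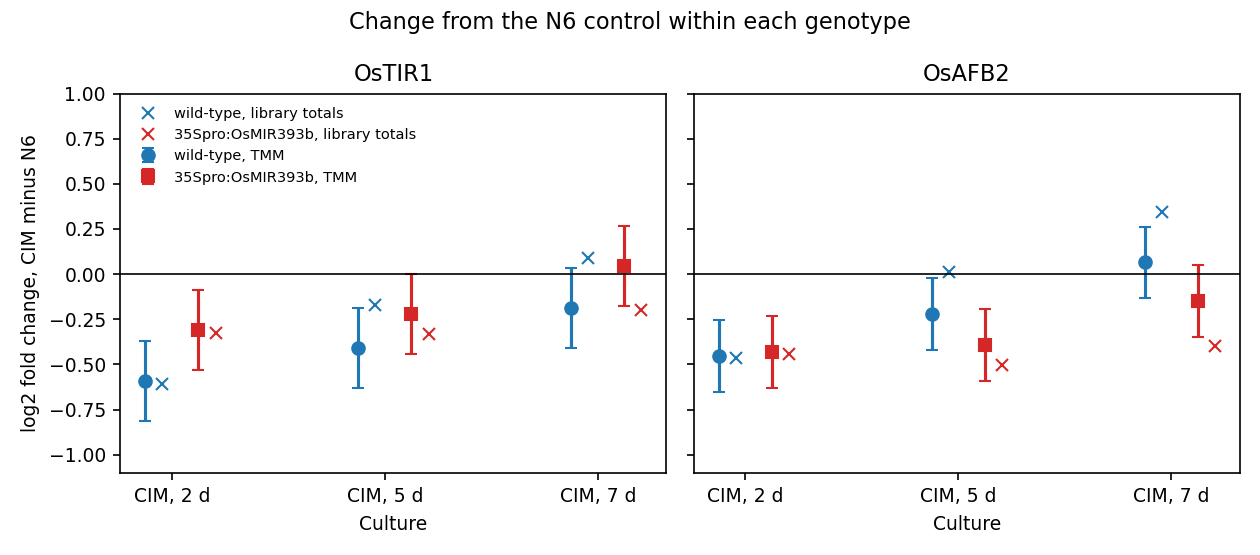
Log2 fold change from N6 to each day on CIM for OsTIR1 and OsAFB2 in each genotype. Filled symbols with 95% limits use TMM factors and crosses library totals. The 2 scalings lie close together at 2 d and part at 5 and 7 d, upwards in wild-type and downwards in the line.

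Whether the change from N6 differed between the genotypes was tested as an interaction in the same fit. With TMM it did not pass for OsTIR1 at 2, 5 or 7 d (log2 differences of 0.28 ± 0.149, 0.19 ± 0.149 and 0.23 ± 0.149 SE, edgeR adjusted p = 0.455, 0.359 and 0.209). It did not pass for OsAFB2 either (0.02, −0.17 and −0.21, each ± 0.134 SE, adjusted p = 0.991, 0.362 and 0.205). In these comparisons 0.68, 32.3 and 46.8% of all genes passed at 2, 5 and 7 d. The 95% limits still allowed ratios of 94.8 to 146% for OsTIR1 and 70.9 to 105% for OsAFB2 at 7 d. With library totals OsAFB2 passed at 5 d (−0.52, adjusted p = 0.00848) and 7 d (−0.74, adjusted p = 0.000267), and the OsTIR1 differences turned negative (−0.16 and −0.29, adjusted p = 0.456 and 0.129) without passing.

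By group means, the ratio within libraries, which no scaling moves, fell with culture in wild-type and rose in the line. The wild-type mean was 1.09 for N6, then 0.990, 0.956 and 0.912 on CIM at 2, 5 and 7 d, whereas the mean of the line was 0.441, then 0.478, 0.495 and 0.502. At 7 d the ratio was 1.01, 0.861 and 0.871 in the wild-type libraries against 1.12, 1.03 and 1.12 on N6, with no overlap, and 0.456, 0.544 and 0.507 against 0.422, 0.426 and 0.474 in the line, which overlapped. The change in the log2 ratio was −0.26 in wild-type and 0.19 in the line at 7 d, a difference of 0.44 (exact permutation test of culture labels within each genotype, two-sided, p = 0.015, 0.0225 adjusted over the 3 days). The difference was 0.35 at 5 d (exact p = 0.005, the smallest that 400 relabellings can give, 0.015 adjusted) and 0.26 at 2 d (exact p = 0.035, 0.035 adjusted). This test was added after the ratios had been seen, and its 3 days share the N6 libraries. Its null is no change in either genotype, so a small p does not by itself show that the changes were unequal. Within a genotype, 3 libraries against 3 cannot give an exact p below 0.1. The result at 2 d did not hold when some libraries were left out, in wild-type replicates 1 and 3 on N6 (differences of 0.23 and 0.24) and replicates 2 and 3 on CIM (0.27 and 0.18), in the line replicates 1 and 2 on N6 (0.23 and 0.23) and replicates 1 and 2 on CIM (0.27 and 0.23).

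Ordered by mean level, OsTIR1 was highest in wild-type on N6 (110.5 CPM), then in wild-type at 7 d (97.0), 5 d (83.2) and 2 d (73.4 CPM), and then in the line at 7 d (26.8), on N6 (26.0), at 5 d (22.3) and at 2 d (21.0 CPM). In that order wild-type on N6 and at 7 d overlapped in their libraries, as did each pair of neighbours within the line, and the other neighbours did not. OsAFB2 was highest in wild-type at 7 d (148 CPM), then on N6 (142), at 5 d (121) and at 2 d (103 CPM), followed by the line on N6 (82.3), at 7 d (74.2), 5 d (62.7) and 2 d (61.1 CPM). Wild-type at 7 d, on N6 and at 5 d overlapped from neighbour to neighbour, and so did the groups of the line. By these TMM-scaled means both genes were lowest at 2 d on CIM in each genotype, but by mean FPKM the line was lowest at 5 d (OsTIR1 8.88 against 8.90 FPKM at 2 d, OsAFB2 17.95 against 18.7 FPKM).

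Depth was not the limit on these levels. OsTIR1 had 1228 to 8271 and OsAFB2 3451 to 13376 estimated counts per library, and the coefficient of variation within groups ran from 2.19 to 14.1% and from 3.09 to 13.3%. The kit did not keep strand, and a hypothetical gene on the opposite strand overlaps each receptor gene, so reads of the pair cannot be told apart. Os05g0150550, which overlaps OsTIR1 from 2893494 to 2899089, had 4 to 221 counts, or 0.259 to 7.41% of the OsTIR1 count. It passed as lower in the line (log2 −1.02 ± 0.405 SE, edgeR adjusted p = 0.0343 in the mean over cultures), and this value is uncertain for that reason. Os04g0395651, which overlaps OsAFB2 from 19455050 to 19457385, had at most 25 counts, or 0.641% of the OsAFB2 count, and was at 0 in 10 libraries.

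OsTIR1 and OsAFB2 were compared with 3 other genes listed with them. Os_F0720 (Os11g0515500) is annotated as similar to transport inhibitor response 1, and Os_F0767 (Os02g0759700) and Os_F0701 (Os03g0187500) only as leucine-rich repeat genes with terms for an SCF complex. Of the 5 genes, 2 fell, 1 rose and 2 did not pass in the mean over cultures (median log2 −0.11, against 0.01 over all genes). Os_F0720 ranged over 18.4 to 29.7 CPM for wild-type against 20.1 to 40.4 CPM for the line, and rose by 0.36 ± 0.0527 SE (log2, edgeR adjusted p = 7.8e-06, where 32% of all genes passed as higher), but with library totals it stood at 0.07 (adjusted p = 0.152). Os_F0767 (−0.08 ± 0.0994 SE, adjusted p = 0.532) and Os_F0701 (−0.11 ± 0.0697 SE, adjusted p = 0.182) did not pass with TMM and passed as lower with totals (−0.36 and −0.38). A gene on the opposite strand also overlaps Os_F0767 (up to 6.52% of its count) and Os_F0701 (up to 41.7%), whose values are uncertain.

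On N6, where 4.56% of all genes passed as higher and 2.8% as lower, OsTIR1 and OsAFB2 passed and the 3 others did not. Os_F0720, for example, differed there by log2 −0.17 (edgeR adjusted p = 0.36). At 5 and 7 d Os_F0720 was higher in the line by 0.73 (adjusted p = 1.25e-05) and 0.78 (adjusted p = 3.23e-06). Os_F0701 was lower by 0.36 at 5 d (log2 −0.36, adjusted p = 0.0359) and by 0.42 at 7 d (−0.42, adjusted p = 0.0138).

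As shares of the summed FPKM of the 5 genes, which no scaling between libraries moves, OsTIR1 held 31.1 to 40.5% (median 34.2%) in the 12 wild-type libraries and 14.3 to 17.4% (median 15.6%) in those of the line. OsAFB2 held 32.4 to 37.6% (median 36.1%) and 29.7 to 41.0% (median 31.6%), which overlapped. Together they made up 64.9 to 76.8% of the sum in wild-type and 44.5 to 58.4% in the line. The shares of the other genes were higher in the line. That of Os_F0720 was 5.35 to 7.96% in wild-type and 10.4 to 19.4% in the line. That of Os_F0701 was 6.62 to 11.1% and 11.8 to 17.5%. For Os_F0767 the ranges overlapped, with medians of 13.1 and 21.5%. Shares within a library are tied together, so a higher share need not mean a higher level. On N6 the mean share of Os_F0720 was 7.06% in wild-type and 11.6% in the line, but its mean level was 8.87 and 7.56 FPKM. The summed FPKM of wild-type was 126 ± 4.53 (SD, n = 3) on N6 and 159 ± 8.36 at 7 d. That of the line was 65.4 ± 3.27 and 61.1 ± 7.55. Unlike the shares, these sums depend on the scaling between libraries. On FPKM the median log2 change of all genes from N6 to 7 d was 0.273 in wild-type and −0.247 in the line. The change of the sums with culture is therefore uncertain.

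**Figure D5:**
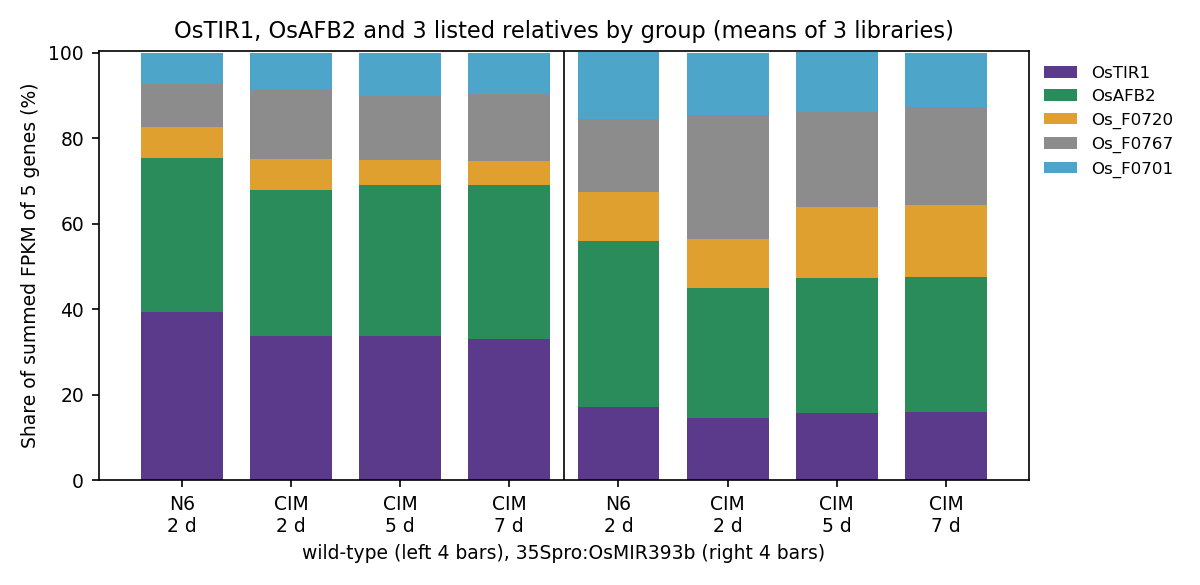
Share (%) of each gene in the summed FPKM of OsTIR1, OsAFB2, Os_F0720, Os_F0767 and Os_F0701, as group means of 3 libraries. OsTIR1 takes 33.0 to 39.3% in the wild-type bars and 14.5 to 17.1% in those of the line, and the other 4 genes make up the rest.

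The COI1 genes encode the F-box receptors of jasmonate, the closest relatives of TIR1/AFB proteins by sequence and mode of action. All 3 rose in the mean over cultures (median log2 0.82), where 32% of all genes passed as higher: OsCOI1a by 0.91 ± 0.0516 SE (edgeR adjusted p = 5.18e-11), OsCOI1b by 0.82 ± 0.0554 SE (adjusted p = 4.08e-10) and OsCOI2 by 0.42 ± 0.0441 SE (adjusted p = 9.59e-08), and with library totals by 0.63, 0.53 and 0.14. On N6, where 4.56% of all genes passed as higher, they did not pass, at 0.22, 0.07 and 0.19 (adjusted p = 0.2, 0.77 and 0.206). At an unadjusted p under 0.05, 2 of them were higher there, and DESeq2 passed 0. Wild-type had 83.4, 84.9 and 84.2 CPM of OsCOI1a on N6 but 49.5, 50.8 and 47.5 CPM at 7 d. The line had 105, 94.4 and 95.1 CPM on N6 but 133, 122 and 132 CPM at 7 d. The difference between the genotypes thus changed with culture for OsCOI1a and OsCOI1b, with interactions at 7 d of 1.17 each (adjusted p = 3.65e-06 and 7.66e-06), or 0.64 each with totals. The difference between these interactions and those of the receptors was not tested.

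TIR1/AFB proteins act within SCF complexes of a SKP1-like adaptor, a cullin and a RING-box protein, switched on by the ubiquitin-like protein RUB (NEDD8). Of 28 listed subunits and regulators 19 were tested, and 4 rose and 8 fell (median log2 −0.11), beside 32% of all genes higher and 30.6% lower. OSK19 and OSK22, SKP1-like genes annotated as fimbriata-associated, fell by 2.73 ± 0.257 SE (log2 −2.73, edgeR adjusted p = 2.39e-08) and 3.19 ± 0.339 SE (log2 −3.19, adjusted p = 1.21e-07). OsRBX1b, a RING-box gene, rose by 0.51 ± 0.0509 SE (adjusted p = 4.74e-08), and OsUBC4, annotated as a NEDD8-conjugating enzyme, by 0.50 ± 0.0571 SE (adjusted p = 2.9e-07). With totals these rises were 0.23 and 0.22.

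Of 14 genes of the microRNA and secondary siRNA machinery, 1 rose and 10 fell in the mean over cultures (median log2 −0.40), beside 32% of all genes higher and 30.6% lower. The ARGONAUTE1 genes OsAGO1a, OsAGO1b and OsAGO1c fell by 0.75 ± 0.0614, 0.71 ± 0.073 and 0.60 ± 0.0605 SE (log2 −0.75, −0.71 and −0.60, edgeR adjusted p = 4.02e-09, 8.28e-08 and 6.27e-08). Os01g0363900, named OsWAK5 in the table but described there as similar to HASTY, an exportin known from Arabidopsis miRNA work, fell by 0.36 ± 0.0449 SE (log2 −0.36, adjusted p = 1.08e-06). On N6, where OsTIR1 and OsAFB2 were lower, 0 of the 14 passed in either direction with edgeR or DESeq2. With edgeR 4.56% of all genes passed there as higher and 2.8% as lower, so a count of 0 does not set this list apart. At an unadjusted p under 0.05, 2 of the 14 were higher there and 0 lower, with no share of all genes taken. At 7 d 1 rose and 11 fell, beside 30% and 31.2% of all genes.

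Aux/IAA and ARF genes, which act downstream of the receptors, passed in small numbers on N6 and in large numbers at 7 d. Of 31 Aux/IAA repressor genes 28 were tested: 1 rose and 2 fell on N6, 1 rose and 10 fell at 2 d, 4 rose and 13 fell at 5 d, and 4 rose and 20 fell at 7 d, with medians of log2 −0.26, −0.52, −0.93 and −1.35. Of 27 ARF genes 26 were tested: 0 rose and 1 fell on N6, 4 rose and 8 fell at 2 d, 3 rose and 20 fell at 5 d, and 2 rose and 22 fell at 7 d, with medians of −0.02, −0.21, −0.97 and −1.67. At an unadjusted p under 0.05 on N6, 3 Aux/IAA genes were higher and 8 lower, and 2 ARF genes were higher and 3 lower. There DESeq2 passed 1 Aux/IAA gene as higher and 4 as lower, and 0 ARF genes as higher and 2 as lower. No share of all genes was taken for these counts. The medians of all genes were between −0.03 and 0.02. Of all genes, 4.56, 9.22, 26.7 and 30% passed as higher on these cultures and 2.8, 8.66, 23.5 and 31.2% as lower. OsTIR1 differed by −2.09 on N6 and −1.85 at 7 d.

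In the mean over cultures 5 Aux/IAA genes rose and 20 fell, and 3 ARF genes rose and 21 fell. Of all genes, 32% passed there as higher and 30.6% as lower. OsIAA19 fell to 36.1% of wild-type (log2 −1.47 ± 0.089 SE, edgeR adjusted p = 1.04e-10), from 46.3 and 33.2 FPKM on N6 in wild-type and the line to 227 and 36.4 FPKM at 7 d. OsIAA4 fell by 1.63 ± 0.125 SE (log2 −1.63, adjusted p = 1.71e-09) and OsIAA10 by 0.89 ± 0.0691 SE (log2 −0.89, adjusted p = 2.06e-09), while OsIAA25 rose by 1.84 ± 0.139 SE (adjusted p = 1.41e-09). Among the ARFs, OsARF1 fell by 1.08 ± 0.0815 SE (log2 −1.08, adjusted p = 1.39e-09). OsARF7b and the OsARF10 gene Os06g0685700 rose by 1.05 ± 0.0816 SE and 0.74 ± 0.061 SE (adjusted p = 2.05e-09 and 4.85e-09). Of 3 other genes, listed by words for auxin-binding proteins or TMK kinases, 2 were tested. Both passed as higher on N6 (median log2 0.42), where 4.56% of all genes did. In the mean over cultures OsTMK, a receptor-like kinase gene, fell by 0.49 ± 0.06 SE (log2 −0.49, adjusted p = 7.17e-07), and the ABP-like gene Os12g0529400 stood at 0.08 ± 0.0625 SE (adjusted p = 0.269) with TMM and was lower with totals (−0.19).

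Across the 24 libraries OsTIR1 and OsAFB2 were each among the genes most like the other. Pearson's r of their log2 CPM was 0.96, over points that share genotype, culture and library, and among 12641 genes with a mean of at least 10 CPM OsAFB2 ranked 2 for OsTIR1 and OsTIR1 ranked 1 for OsAFB2. With the mean of each genotype removed r was 0.855, at the same ranks. The other genes nearest to both were Os11g0206000 (0.968 with OsTIR1 and 0.914 with OsAFB2), the F-box gene Os_F0390 (0.945 and 0.889) and Os04g0330301 (0.943 and 0.888), followed by Os07g0629500 for OsTIR1 (0.865) and the F-box gene OsFbox282 for OsAFB2 (0.848). Of these, 2 were close to absent from the line: wild-type had 53.1 to 108 CPM of Os11g0206000 against at most 0.388 CPM, and 20.5 to 46.6 CPM of Os04g0330301 against at most 0.646 CPM. For Os_F0390 the ranges were 15.8 to 23.6 and 2.86 to 5.604 CPM. With genotype means removed, the nearest to OsTIR1 besides OsAFB2 were Os03g0370900 (0.893, similar to a cytochrome P450), OsbHLH084 (0.855), Os03g0231600 (0.833) and Os09g0488700 (0.833), and to OsAFB2, besides OsTIR1, Os02g0719800 (0.837), Os05g0446500 (0.816), Os03g0109900 (0.807) and Os01g0813900 (0.798).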

How the data were processed

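The submitters' processing notes name Trimmomatic 0.36 (read trimming), HISAT2 2.1.0 (alignment), StringTie 1.3.4d (abundance estimates) and the IRGSP-1.0 genome. The study's methods also name UMI-tools, and whether it shaped these values is not given in the sources used here. The deposited table holds, per gene and library, an estimated count (whole numbers, not normalized, in which 1 fragment is often worth about 4) and an FPKM value, which the authors scaled by transcript length and library (0.0001 where the count is 0). No column belonged to other samples.

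The main analysis was run in edgeR 4.0.16 (R 4.3.3): filterByExpr, TMM factors and quasi-likelihood tests on a model with a mean for each of 8 groups (16 residual and 3 prior degrees of freedom). Dividing the size of a log2 fold change by the root of its F statistic gave the standard error. The contrasts were the line minus wild-type at each culture and as their mean, each day on CIM minus N6, and their interaction. Ratios were tested by exact permutation in Python 3.11.15 with NumPy 2.4.6 and pandas 2.3.3, and figures were drawn with Matplotlib 3.10.9. The test script was tested on simulated data. Alternatives used RLE factors, library totals, DESeq2 1.42.0, limma 3.58.1 on log2(FPKM + 0.1) and log2(FPKM + 1), no filter, only the groups compared, a replicate block, counts divided by 4, and each library left out.

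The receptors and lists were chosen with earlier results of these data known. Lists came from words in the annotation and were edited by its text. A list of corepressors of the TOPLESS type was not used here, since its search words met tetratricopeptide repeat and aspartic proteinase genes. Named were the receptors, the other TIR1/AFB and COI1 genes, the 4 genes of smallest p in each list, the 5 most alike genes by each measure, and the 3 genes on each side in order of fold change. A gene that this rule names is not reported here. P-values measure the spread between libraries, which the study calls biological replicates. Sequences were not used here.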

Additional observations from a re-analysis of the deposited data

Results flagged for a closer look

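The mean change in the log2 ratio of OsTIR1 to OsAFB2 from N6 to CIM differed, line minus wild-type, by 0.26 at 2 d, 0.35 at 5 d and 0.44 at 7 d. The test of this was added after the ratios had been seen, and its null was no change in either genotype. The result at 2 d did not hold in 8 of 12 omissions of a library. Every group mean of the ratio on CIM lay below that on N6 in wild-type and above it in the line. Of the relatives, Os_F0720 changed from N6 differently in the genotypes, with an interaction of 0.90 at 5 d and 0.95 at 7 d on the log2 scale (edgeR adjusted p = 0.000171 and 4.26e-05), or 0.56 and 0.41 with library totals. Os_F0701, whose count shares reads with an overlapping gene, had interactions of −0.57 and −0.62 (adjusted p = 0.0334 and 0.0143), and the first did not pass in a fit of only the groups compared. OsCOI1a had 1.10 and 1.17 (adjusted p = 2.08e-05 and 3.65e-06) and OsCOI1b 1.34 and 1.17 (adjusted p = 6.71e-06 and 7.66e-06).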

How the results depend on the processing

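The fall of OsTIR1 and OsAFB2 in the line passed at every culture and in the mean under all alternatives run, and so did the difference in their ratio (−0.97 to −1.06). Scaling by library totals, but not by RLE factors, changed whether 4 of the 8 changes from N6 at 5 and 7 d passed. With library totals, limma on log2(FPKM + 0.1) and limma on log2(FPKM + 1), in that order, OsTIR1 in wild-type at 5 d was at −0.17, −0.18 and −0.17 and no longer passed. The following passed only then: OsAFB2 in wild-type at 7 d (0.34, 0.34 and 0.33), OsTIR1 in the line at 5 d (−0.33, −0.32 and −0.30), OsAFB2 in the line at 7 d (−0.40, −0.40 and −0.38), and the OsAFB2 interactions at 5 d (−0.52, −0.50 and −0.48) and 7 d (−0.74, −0.73 and −0.71). The medians of all genes moved with the totals, which the scaling itself produces. Under the same 3 settings Os12g0529400 turned to −0.19, −0.19 and −0.18 in the mean over cultures and the OsCOI2 interaction at 7 d to −0.33, −0.33 and −0.31. With totals 2 TIR1/AFB genes, 1 gene of the microRNA machinery and 0 ARF genes were called lower, lower and higher, against 1, 0 and 1. Without a filter 1 SCF gene was called higher, against 0. OsAFB2 in wild-type at 5 d (−0.22, not passing) passed with counts divided by 4 (−0.25) and DESeq2 (−0.23), and in 4 of 24 omissions of a library (−0.30 to −0.18 over all). OsAFB2 in the line at 5 d did not pass with only the groups compared (−0.38), and at 2 d it failed in 3 omissions (−0.47 to −0.35 over all). The cause was not tested. Replicate numbers did not pair the libraries: deviations of same-numbered libraries correlated at −0.00801 on average, others at 0.00401, and 7 of 24 libraries were nearest to their own number. A replicate block left the ratio difference at −1.04 (exact p = 0.000488), changed the passing of no edgeR result, and took the added ratio change at 2 d (0.26) to an exact p of 0.0625. Depth did not limit the 2 receptors. It limited Os04g0395651, list genes that the filter removed, and OsIAA26, OSK7 and shl4, which were at or near 0 on N6 and had no usable estimate of the mean over cultures.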
